A study of Gallus gallus with 12 samples.

Results

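The comparison described here set the circumferential muscle of the chick hindgut against that of a midgut made to express Hoxd13, at embryonic day 14. It used 8 of the 12 samples of a Light-seq study, 4 hindgut and 4 Hoxd13 midgut, and of each sample only the counts barcoded on the inner face of the circumferential muscle. In Light-seq, RNA is copied into cDNA on a tissue section, regions outlined by hand are barcoded with light, and the cDNA of all regions is sequenced together. The remaining 4 samples, control midgut, entered the fit for a shared estimate of the spread. They also entered the scaling and the filter that chose which genes were tested, 349 with them and 330 without. Their values are given as a reference level.

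The hindgut group came from embryos with the genotype RCAS-mGFP, and so did the midgut group, mGFP being a fluorescent control protein. The Hoxd13 midgut group carried RCAS-Hoxd13. RCAS is an avian retrovirus that replicates in the cells it enters and drives the inserted gene from viral sequences, so the level of Hoxd13 in that group is not set by the gene's own control regions. All groups were incubated at 38 °C, and all received virus by electroporation at Hamburger-Hamilton stage 17. The labels place that electroporation in the splanchnic mesoderm of the midgut level for the hindgut samples too. The share of cells that carried virus in each section, and whether the 4 samples of a group came from separate embryos, are not given in the sources used here, so the p-values below measure the spread between these samples, which may be technical. The study's text states that only the mesenchyme layer was compared between conditions there.

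HOX genes encode transcription factors that give cells along the body axis their position. Those at the posterior end of each cluster, HOXD13 and HOXA13 among them, are active in the hindgut mesoderm and not in most of the midgut. Misexpression of Hoxd13 in the midgut mesoderm is a classical test of how much hindgut character 1 posterior gene can bring about. The circumferential muscle is the ring of smooth muscle around the gut, which contracts to move its contents, and its cells are joined to a matrix of collagens and a basement membrane.

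Total counts were 19920 to 112252 in the hindgut and 39977 to 70090 in the Hoxd13 midgut columns, and 3208 to 9351 genes had a count in a sample. At that depth a count of 0 allows up to 26.7 to 151 CPM (counts scaled to a common library total) in 1 sample, a floor of 3 counts that covers counting error only. All 10 smooth muscle markers had counts in the 8 samples. They summed to 11708 to 16659 CPM of the total in the hindgut and 7706 to 14498 in the Hoxd13 midgut. Endothelial markers (9 of 10 detected, TEK at 0) summed to 49.7 to 199.8 and 89.8 to 183, and immune markers (6 of 10 detected, with PTPRC, CD3D, CD3E and LYZ at 0) to 40.0 to 116 and 18.0 to 102. The columns also held RNA of other types. The 12 fibroblast markers, among them the collagens COL1A1, COL1A2 and COL3A1, summed to 13346 to 17986 in the hindgut and 8928 to 12384 in the Hoxd13 midgut, and 15 of 17 epithelial markers were detected (FABP2 and ESRP1 at 0). In such bulk columns, fewer cells of a type and less RNA per cell cannot be told apart.

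Hindgut replicate 1 stood apart from the other 3 hindgut samples. It had the highest total, 112252 counts, and the lowest share of counts from mitochondrially encoded genes, 29.6% against 35.3 to 43.1% in hindgut replicates 2 to 4 and 42.0 to 47.7% in the Hoxd13 midgut. Its 528 genes of the Z chromosome summed to 18191 CPM, where hindgut replicates 2 to 4 had 10172 to 10629, the Hoxd13 midgut 8675 to 9828 and the midgut 14180 to 16002. The 4 W-linked genes, which only female birds carry, had 10 counts or 89.1 CPM in that sample and 160.0 to 251 in the other hindgut samples. The Hoxd13 midgut samples had 122 to 175, and the midgut samples had 0 W-linked counts. The midgut, used here as a reference level, thus differed from both compared groups in W-linked counts. Differences from the midgut cannot be told apart from a difference of sex. Pooled, the W-linked level of the hindgut was 0.967 times that of the Hoxd13 midgut (95% counting interval 0.573 to 1.63). Without hindgut replicate 1 it was 1.34 times (0.743 to 2.38). Epithelial markers summed to 1808, 522, 602 and 619 CPM in hindgut replicates 1 to 4, so replicate 1 was also the highest there. Counts of calls, medians of gene lists and the leading genes are therefore given with and without that sample.

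**Figure D1:**
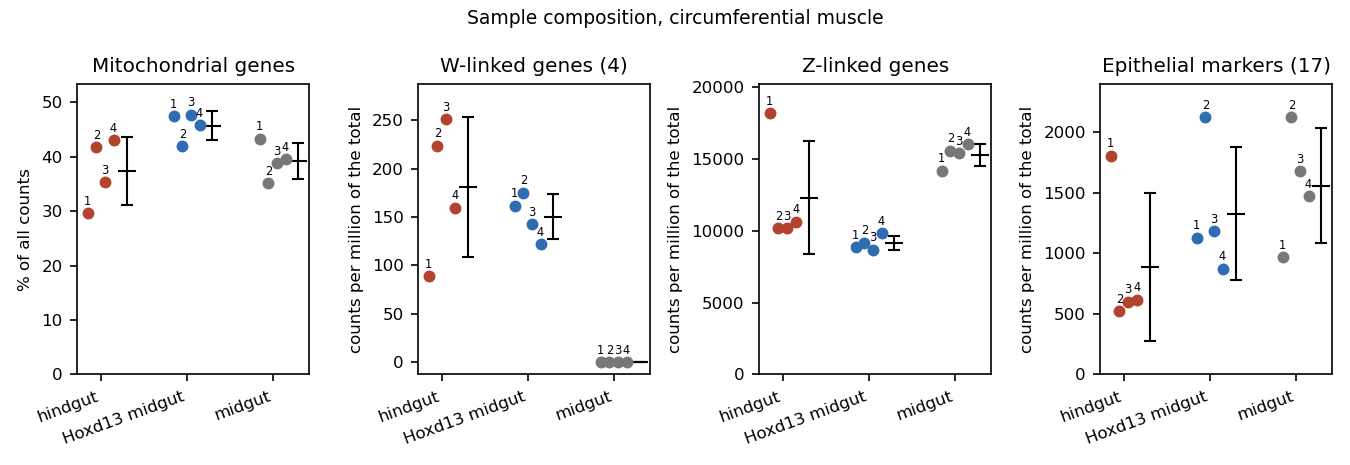
Share of counts from mitochondrially encoded genes (%), and summed CPM of the total for W-linked genes, Z-linked genes and epithelial markers, in each circumferential muscle column of the hindgut, Hoxd13 midgut and midgut groups. Points are samples numbered by replicate and the black bar is the mean ± SD (n = 4); hindgut replicate 1 lies at 29.6% mitochondrial and 18191 Z-linked CPM, away from hindgut replicates 2 to 4.

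HOXD13, the gene on the virus, was far higher in the Hoxd13 midgut than in the hindgut. Its counts were 0, 4, 1 and 0 in hindgut replicates 1 to 4 against 44, 17, 42 and 38 in the Hoxd13 midgut, and 0 in all 4 midgut samples. As CPM of the total, that was 0, 99.5, 50.2 and 0 in the hindgut and 790.4, 425, 599 and 772 in the Hoxd13 midgut. The groups did not overlap, and 2 of the 4 hindgut samples had no HOXD13 count. The means were 37.4 ± 47.7 and 647 ± 171 (SD, n = 4 each), a difference of -609 with a two-sided exact permutation p of 0.0286, the smallest that 4 samples against 4 can give. Scaled to TMM effective totals the difference was -935, and to counts outside mitochondrially encoded genes -1139.6, each with the same exact permutation p of 0.0286. Pooled over samples, 5 counts against 141 put HOXD13 29.2 times higher in the Hoxd13 group, with a 95% counting interval from 12.2 to 91.2. Without hindgut replicate 1 the ratio was 14.5 (6.05 to 45.2). The observed Hoxd13 midgut level was 30.5 times the midgut floor. In the fit across genes the log2 fold change, hindgut over Hoxd13 midgut, was -4.94 ± 0.61 (SE; adjusted p = 8.99e-05, edgeR quasi-likelihood test), and -3.89 ± 0.55 without hindgut replicate 1 (edgeR adjusted p = 0.00084). Counts of the viral and of the chick's own HOXD13 cannot be told apart in the table.

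The other posterior HOX genes showed the opposite distribution: they were counted in the hindgut and not in the Hoxd13 midgut. Of 12 such genes in the table, 9 had a count in the hindgut, 37 counts in all, and 0 of the 12 had a count in any Hoxd13 midgut sample. Per hindgut sample the sum was 8, 11, 7 and 11 counts, against 0 in all 4 Hoxd13 midgut samples. The 71.3 CPM of hindgut replicate 1 lay under the 75.0 CPM that a count of 0 allows in Hoxd13 midgut replicate 2, so that pair was not resolved. Pooled, the hindgut level was 11.9 times the floor of the Hoxd13 midgut group (3 counts over the group). It was 18.9 times that floor without hindgut replicate 1, which had the lowest sum in CPM, 71.3 against 220 to 351. These multiples leave out the counting error of the hindgut level. The midgut had 3 counts, all of HOXC9, and the hindgut level was 7.73 times the midgut's (95% counting interval 2.45 to 39.2).

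HOXA11 had 1, 2, 2 and 2 counts in hindgut replicates 1 to 4 and was the only one of the 12 counted in every hindgut sample. HOXA13, the paralogue of HOXD13 that marks the most posterior gut, had 0, 3, 2 and 2. HOXB13, the posterior gene of the HOXB cluster, had 2, 2, 0 and 2, and HOXA10 had 0, 1, 1 and 3. HOXA9 and HOXD12 had 3 counts each, HOXC9, HOXD9 and HOXD11 had 2 each, and HOXB9, HOXC13 and HOXD10 had none in these samples. Singly, the observed hindgut levels of HOXA11 and HOXA13 were each 2.26 times the floor of the Hoxd13 midgut. That multiple leaves out the counting error of the hindgut level. Hoxd13 midgut over hindgut, the counting interval of each gene ran from 0 to 0.718. None of the 12 had enough counts to enter the fit across genes, and a level below the floor of the Hoxd13 midgut, 14.0 CPM over the group, was not detectable at this depth. The 21 HOX genes of anterior and middle position were counted in both groups, summing to 748, 373, 100.4 and 359.6 CPM in the hindgut and 485, 400.2, 414 and 609 in the Hoxd13 midgut, and these ranges overlapped.

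**Figure D2:**
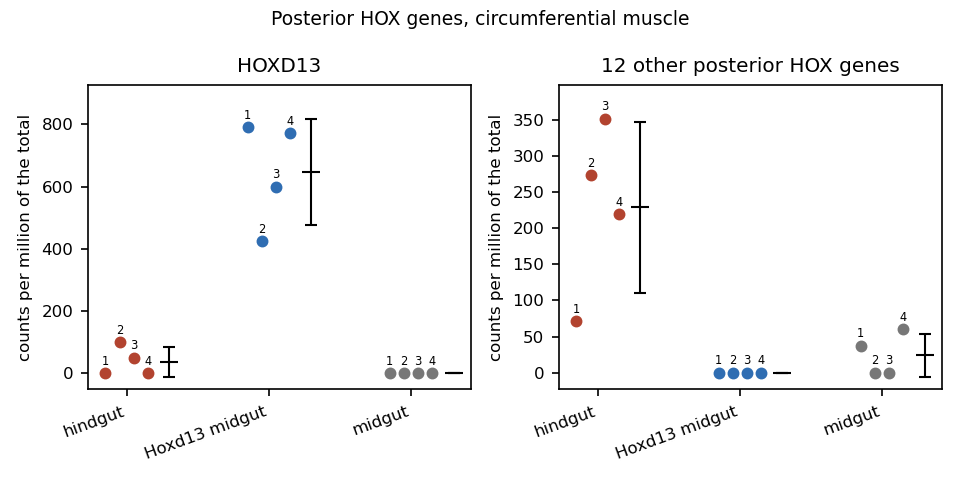
HOXD13 (left) and the sum of the 12 other posterior HOX genes in the table (right), in CPM of the total, in each circumferential muscle column of the 3 groups. Points are samples numbered by replicate and the black bar is the mean ± SD (n = 4); HOXD13 is at 425 to 790.4 in the Hoxd13 midgut and at most 99.5 in the hindgut, while the other posterior genes are at 71.3 to 351 in the hindgut and at 0 in the Hoxd13 midgut.

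Beyond HOXD13, few of the genes that could be tested at this depth passed the threshold between the muscle of the hindgut and that of the Hoxd13 midgut. Of 349 genes with enough counts to be tested, 3 passed an adjusted p of 0.05 (0.86%; edgeR), and all 3 were lower in the hindgut. They were HOXD13 and the genes with the Ensembl identifiers ENSGALG00000029193 and ENSGALG00000041922, which the files do not pair with a name. At an unadjusted p under 0.05 there were 52 genes (14.9%), 33 higher (9.46%) and 19 lower (5.44%) in the hindgut. The median log2 fold change of all 349 was 0.00, with 177 above 0 (50.7%). The gene levels below are CPM of the TMM-scaled total of these tested genes.

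ENSGALG00000029193 had levels of 494, 329.8, 501 and 643 in hindgut replicates 1 to 4 and 1251, 1440.0, 1473 and 1495 in the Hoxd13 midgut. Every hindgut sample lay below every Hoxd13 midgut sample, and the midgut, at 593 ± 267 (SD, n = 4), lay near the hindgut. Its log2 fold change was -1.50 ± 0.25 (edgeR adjusted p = 0.0014), -1.51 ± 0.30 without hindgut replicate 1 (edgeR adjusted p = 0.0071), and -1.15 ± 0.12 in the mesenchyme of the same samples (edgeR adjusted p = 3.8e-06). ENSGALG00000041922 had levels of 466, 696, 573 and 643 in the hindgut, 1542, 1625, 1183 and 821 in the Hoxd13 midgut and 419.5 ± 113 (SD, n = 4) in the midgut. The groups again did not overlap, and the log2 fold change was -1.15 ± 0.25 (edgeR adjusted p = 0.016). Without hindgut replicate 1 it was -1.01 ± 0.27 and missed the threshold (edgeR adjusted p = 0.0504). It also missed it with DESeq2, without the filter on low counts, and without Hoxd13 midgut replicate 1, 2 or 3 in turn.

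Without hindgut replicate 1, 10 of 365 genes passed (2.74%), 4 higher (1.1%) and 6 lower (1.64%) in the hindgut, and 2 of the 3 genes called with all samples were among them. At an unadjusted p under 0.05 there were 65 (17.8%). The 4 higher genes were FREM2, FBN2, MCAM and PTN. The 6 lower ones were HOXD13, ENSGALG00000029193, SRRM1, GUCA2B and 2 more Ensembl identifiers without a name. In the 4 higher genes hindgut replicate 1 was the lowest hindgut sample, and in SRRM1 and GUCA2B it was the highest. These genes are named because they passed without that replicate and not with it, so its place among them follows in part from that choice.

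FREM2 codes for a protein of the basement membrane zone that helps to hold epithelium and underlying tissue together. Its levels were 646, 1026, 1646 and 1419 in hindgut replicates 1 to 4 and 582, 702, 669 and 352 in the Hoxd13 midgut, so hindgut replicate 1 fell within the Hoxd13 midgut and replicates 2 to 4 lay above it. The log2 fold change was 0.92 ± 0.29 with all samples (edgeR adjusted p = 0.11) and 1.19 ± 0.26 without hindgut replicate 1 (edgeR adjusted p = 0.019). The midgut level, 711 ± 133 (SD, n = 4), was near that of the Hoxd13 midgut. MCAM, a cell adhesion molecule of smooth muscle and vessel walls, had 2909, 5239.7, 7299.8 and 3721 in the hindgut against 3200.4, 2879.9, 2767 and 2492. Its log2 fold change was 0.71 ± 0.24 (edgeR adjusted p = 0.14), and 0.89 ± 0.24 without hindgut replicate 1 (edgeR adjusted p = 0.048).

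PTN, pleiotrophin, is a secreted heparin-binding growth factor. It had levels of 295, 696, 787 and 535 in the hindgut and 233, 258, 223 and 410.5 in the Hoxd13 midgut, with a log2 fold change of 0.86 ± 0.35 (edgeR adjusted p = 0.23) and 1.19 ± 0.32 without hindgut replicate 1 (edgeR adjusted p = 0.048). In that last fit all hindgut samples, but only 1 Hoxd13 midgut sample, reached the level of the filter on low counts. The PTN call is thus not independent of that filter, and no conclusion is drawn from it. In the mesenchyme of the same samples PTN was also higher in the hindgut, by 1.93 ± 0.33 (edgeR adjusted p = 0.0024). FBN2 codes for fibrillin-2, a component of the microfibrils on which elastic fibres form. Its levels were 257, 586, 930.4 and 562 in the hindgut and 233, 295, 245 and 323 in the Hoxd13 midgut. It had too few counts to be tested with all samples. Without hindgut replicate 1 it met the filter on low counts only through the remaining hindgut samples, where it was high. Its log2 fold change in that fit was 1.23 ± 0.31 (edgeR adjusted p = 0.038). That call is not independent of the filter, so no conclusion is drawn from it.

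SRRM1, a factor of RNA splicing, had levels of 314, 73.3, 71.6 and 134 in the hindgut and 378, 517, 357 and 323 in the Hoxd13 midgut. The groups did not overlap, hindgut replicate 1 was close to the lowest Hoxd13 midgut sample, and the log2 fold change was -0.95 ± 0.38 (edgeR adjusted p = 0.22) or -1.92 ± 0.45 without that replicate (edgeR adjusted p = 0.027). GUCA2B codes for uroguanylin, a peptide hormone that the gut epithelium secretes. It had 618, 73.3, 143 and 161 in the hindgut and 407, 702, 491 and 323 in the Hoxd13 midgut, so that hindgut replicate 1 lay among the Hoxd13 midgut samples. Its log2 fold change was -0.51 ± 0.45 (edgeR adjusted p = 0.65), and -1.89 ± 0.48 without hindgut replicate 1 (edgeR adjusted p = 0.038). The summed epithelial markers moved with it: they were 522 to 619 CPM in hindgut replicates 2 to 4, 1808 in replicate 1 and 873 to 2126 in the Hoxd13 midgut, and their part in the GUCA2B result was not tested. Without hindgut replicate 1, no hindgut sample of SRRM1 or GUCA2B reached the level of the filter on low counts. Neither call is independent of that filter, so no conclusion is drawn from either.

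**Figure D3:**
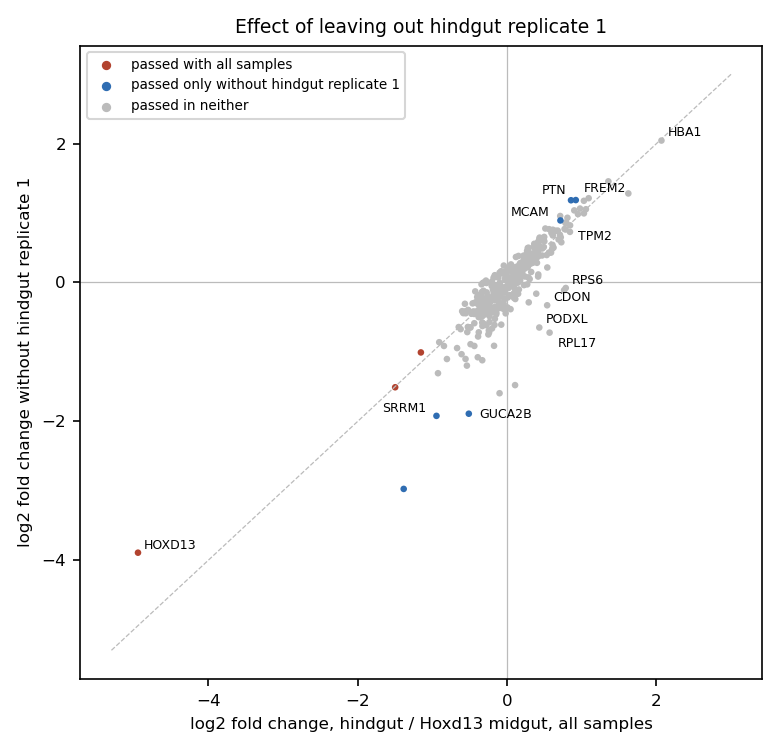
Log2 fold change, hindgut over Hoxd13 midgut, of genes tested in both fits, with all samples (horizontal) and without hindgut replicate 1 (vertical); each point is a gene and the dashed line marks equal values. HOXD13 lies at -4.94 and -3.89, most genes lie near the line, and RPL17, RPS6, CDON and PODXL lie above 0 on the horizontal axis and below 0 on the vertical one.

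No gene of the smooth muscle contractile apparatus passed the test between the muscles. Of 28 genes of the list, 20 were tested, 12 with a log2 fold change above 0 and 8 below it. In the hindgut 3 of the 20, CNN1 among them, were higher at an unadjusted p under 0.05, against 9.46% of all tested genes. The median was 0.10, or 0.12 without hindgut replicate 1, against 0.00 for all tested genes, and leaving out Hoxd13 midgut replicate 4 put 17 of the 20 above 0 with a median of 0.21. ACTG2, the enteric smooth muscle actin, had 9393, 8940.5, 9232 and 6987 in the hindgut and 5208, 6572, 6070.1 and 9177 in the Hoxd13 midgut, overlapping ranges, with a log2 fold change of 0.35 ± 0.25 (edgeR adjusted p = 0.57). The smooth muscle myosin heavy chain gene MYH11 was at 1798 ± 372 and 1889 ± 698 (SD, n = 4 each), a log2 fold change of -0.03 ± 0.26. TAGLN, transgelin, which bundles actin, was at 2131 ± 548 and 2073 ± 406, a log2 fold change of -0.02 ± 0.22, and MYLK, the kinase that activates smooth muscle myosin, was at 1642 ± 179 and 1749 ± 432. Their signs depended on which sample was left out.

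Further genes of that list showed larger differences. TPM2, a tropomyosin that lies along the actin filament, had 1607, 1282, 1861 and 1098 in the hindgut and 989, 591, 759 and 850.3 in the Hoxd13 midgut. All 4 hindgut samples lay above all 4 Hoxd13 midgut samples, as did all 4 midgut samples at 1696 ± 159.8 (SD, n = 4). The log2 fold change was 0.84 ± 0.21 and missed the threshold (edgeR adjusted p = 0.0516). It was 0.73 ± 0.24 without hindgut replicate 1 (edgeR adjusted p = 0.1), and TPM2 was among 6 of 338 genes that passed when mitochondrial genes were left out (1.78%). TPM2 also passed with the replicate number as a block, although these numbers did not pair the samples. CNN1, calponin, which restrains the myosin motor, had 513, 623, 358 and 509 against 233, 295, 290.1 and 323, with no overlap, and a log2 fold change of 0.84 ± 0.32 (edgeR adjusted p = 0.18), and 0.82 ± 0.35 without hindgut replicate 1 (edgeR adjusted p = 0.19). All 4 hindgut samples of CNN1, but no Hoxd13 midgut sample, reached the level of the filter on low counts. Its test is thus not independent of that filter, and no conclusion is drawn from it. DES, the muscle intermediate filament desmin, had 1379, 2345, 3006 and 1446 against 931, 1440.0, 1451 and 1642 and a log2 fold change of 0.50 ± 0.24 (edgeR adjusted p = 0.34).

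Non-muscle actin and myosin leaned the other way, without a gene that passed. Of 9 tested genes, 7 had a log2 fold change below 0, and the median was -0.12, or -0.34 without hindgut replicate 1. ACTB, the cytoplasmic beta-actin, was at 8251 ± 1059.5 in the hindgut and 10483 ± 1565 in the Hoxd13 midgut (SD, n = 4 each), a log2 fold change of -0.34 ± 0.18 (edgeR adjusted p = 0.43). MYH9, a non-muscle myosin heavy chain, had 932, 513, 501 and 562 against 960.1, 775, 1138 and 674, and hindgut replicate 1 was the highest of the hindgut. Outside that list, and named after its values were seen, ZYX codes for zyxin, a protein of the sites where actin cables meet the membrane. It had 399, 439.7, 358 and 321 in the hindgut and 727, 628, 826 and 557 in the Hoxd13 midgut. All 4 hindgut samples were lower, and the log2 fold change was -0.85 ± 0.25 (edgeR adjusted p = 0.11), and -0.91 ± 0.30 without hindgut replicate 1 (edgeR adjusted p = 0.1).

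Genes of the basement membrane, the sheet of laminins, collagen IV and proteoglycans around muscle cells, were higher in the hindgut than in the Hoxd13 midgut. None passed with all samples. As CPM of the total, the members in the table summed to 4377 to 6225 in the hindgut and 2838 to 3182 in the Hoxd13 midgut. The midgut sums, 3694 to 5956, also lay above the Hoxd13 midgut and overlapped the hindgut. All 8 tested members of 9 in the table had a log2 fold change above 0 (0.22 to 0.78), with a median of 0.56 and, without hindgut replicate 1, of 0.53. Without hindgut replicate 3, the smallest library at 19920 counts, the median was 0.30. In 3 of the 8 every hindgut sample lay above every Hoxd13 midgut sample, against 4.58% of all tested genes. HSPG2, perlecan, had 1493, 1832, 1861 and 1928 in the hindgut and 902, 1145, 1227 and 792 in the Hoxd13 midgut, a log2 fold change of 0.78 ± 0.24 (edgeR adjusted p = 0.11), and 0.86 ± 0.26 without hindgut replicate 1 (edgeR adjusted p = 0.083). HSPG2 passed with the replicate block (edgeR adjusted p = 0.039), although the replicate numbers did not pair the samples. It also passed in the hindgut and Hoxd13 midgut columns alone once hindgut replicate 1 was left out (edgeR adjusted p = 0.039), a fit added after seeing the data. These were the only 2 of 23 fits in which it passed. AGRN, agrin, had 922, 916, 1288 and 1339 against 786, 702, 513 and 792, and a log2 fold change of 0.65 ± 0.22 (edgeR adjusted p = 0.13), and 0.75 ± 0.23 without hindgut replicate 1 (edgeR adjusted p = 0.087). LAMA5, a laminin chain, had 941, 806, 787 and 696 against 291, 517, 558 and 616, with a log2 fold change of 0.73 ± 0.25 (edgeR adjusted p = 0.14), and 0.58 ± 0.29 without hindgut replicate 1 (edgeR adjusted p = 0.31). These 3 genes were the ones with no overlap. In LAMC1 (log2 fold change 0.47 ± 0.27) and COL4A1 (0.25 ± 0.26) the samples overlapped.

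Fibrillar and associated collagens showed the same sign in all 10 tested genes, with smaller differences (0.10 to 1.03, median 0.29, or 0.33 without hindgut replicate 1), and none passed. Without that replicate 9 of the 10 were above 0. Summed as CPM of the total, the collagens were at 19528 to 25122 in the hindgut and 13437 to 17249 in the Hoxd13 midgut. The midgut, at 19442 to 28988, also lay above the Hoxd13 midgut and overlapped the hindgut. COL1A1, the main fibrillar collagen chain, was at 10559.6 ± 1550.2 in the hindgut and 8341 ± 1444 in the Hoxd13 midgut (SD, n = 4 each), a log2 fold change of 0.33 ± 0.20. COL3A1 differed by 0.14 ± 0.18 and COL1A2 by 0.35 ± 0.20, both with overlapping samples. COL6A3, a chain of the beaded filaments of collagen VI, had 1549.6, 2052, 1718 and 1874 against 1426, 1182, 1473 and 1231 and was the only collagen without overlap, at 0.42 ± 0.17 (edgeR adjusted p = 0.23). COL12A1, which sits on the surface of collagen fibrils, had the highest log2 fold change of the list, 1.03 ± 0.35 (edgeR adjusted p = 0.14), with 409, 586, 501 and 214 against 262, 111, 223 and 176. No Hoxd13 midgut sample of COL12A1 reached the level of the filter on low counts. It was tested only through hindgut and midgut samples, so no conclusion is drawn from its fold change. The fibroblast markers named above include 3 of these collagens. Their summed level, as CPM of the total, was higher than in the Hoxd13 midgut in all 4 hindgut samples. It was also higher in all midgut samples, at 14709 to 22141. A scaling of the sums to counts outside mitochondrially encoded genes was added after seeing the data. On that scaling the marker sums overlapped, at 22358 to 26200 in the hindgut and 16975 to 23700 in the Hoxd13 midgut. Those of the collagens overlapped too, at 30199.5 to 37508 and 25548 to 33010. The part of fibroblast RNA in the collagen differences was not tested.

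Of 21 matrix glycoproteins and proteoglycans in the table, 7 were tested, 6 with a log2 fold change above 0, none passed, and the median was 0.33. Summed as CPM of the total, the 21 were at 5823 to 8347 in the hindgut and 4503 to 5665 in the Hoxd13 midgut. The midgut, at 6978 to 7373, also lay above the Hoxd13 midgut and within the hindgut range. Scaled to counts outside mitochondrially encoded genes, the hindgut and Hoxd13 midgut sums overlapped, at 9006 to 11859 and 7759 to 10459. Without hindgut replicate 1, 8 were tested and the median was 0.34. FBN2, the gene added in that fit, passed there, but it met the filter on low counts only through hindgut samples. PRELP, a leucine-rich proteoglycan that anchors basement membranes to collagen, had 685, 953, 716 and 1071 in the hindgut and 495, 295, 603 and 498 in the Hoxd13 midgut. All 4 hindgut samples were higher, at 0.81 ± 0.25 (edgeR adjusted p = 0.11), or 0.93 ± 0.27 without hindgut replicate 1 (edgeR adjusted p = 0.071). With mitochondrial genes left out too it passed (edgeR adjusted p = 0.049). SVEP1, a large adhesive matrix protein, had 342, 183, 358 and 187 against 175, 111, 0 and 88.0, without overlap, and a log2 fold change of 1.62 ± 0.52 (edgeR adjusted p = 0.13). That was 1.28 ± 0.65 without hindgut replicate 1 (edgeR adjusted p = 0.31). SVEP1 had 53 counts in the hindgut, 17 of them outside hindgut replicate 1, against 12 in the Hoxd13 midgut. The gap between 183 and 175 therefore rests on few counts and is not resolved. No Hoxd13 midgut sample of SVEP1 reached the level of the filter on low counts. Its test is thus not independent of that filter, and no conclusion is drawn from it. FN1, fibronectin, was the 1 member below 0, at -0.24 ± 0.22, and SPARC was at 0.23 ± 0.19, both with overlapping samples.

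**Figure D4:**
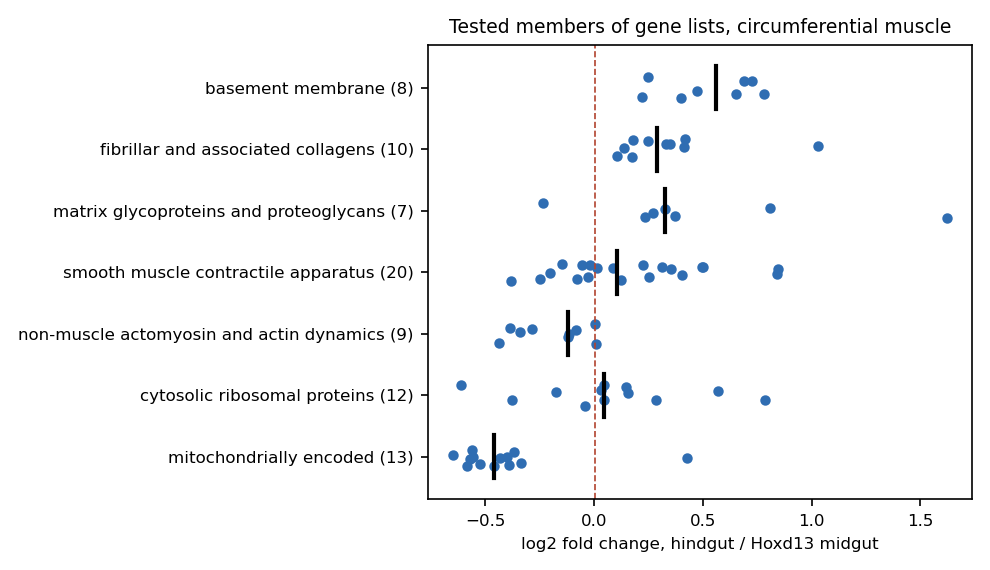
Log2 fold change, hindgut over Hoxd13 midgut, of the tested members of 7 gene lists (number tested in brackets) with all samples. Each point is a gene, the black bar is the median of the list and the dashed line the median of all 349 tested genes; all 8 basement membrane and all 10 collagen genes lie above 0, and 12 of 13 mitochondrially encoded genes lie below it.

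Mitochondrially encoded genes, which code for subunits of the respiratory chain, had lower fitted levels in the hindgut in 12 of 13 cases, and none of the 13 passed. The median log2 fold change was -0.46, or -0.31 without hindgut replicate 1. At an unadjusted p under 0.05, 8 were lower and 1 higher, against 5.44% and 9.46% of all tested genes. On TMM-scaled levels, in 7 of 13 every hindgut sample lay below every Hoxd13 midgut sample, against 5.44% of all tested genes. As a share of all counts, the summed mitochondrially encoded genes overlapped, at 29.6 to 43.1% in the hindgut and 42.0 to 47.7% in the Hoxd13 midgut. ND4L had 4773, 5057, 4008 and 6157 in the hindgut and 9718, 6683, 8101 and 7008 in the Hoxd13 midgut, a log2 fold change of -0.65 ± 0.19 (edgeR adjusted p = 0.11). MT-CO1, the most abundant, was at 79716 ± 27299 and 105138 ± 10549.9 (SD, n = 4 each), a log2 fold change of -0.40 ± 0.24. ND6 was the exception, at 0.43 ± 0.18 (edgeR adjusted p = 0.27), with 4763, 7145, 6799 and 6452 against 5353, 4652, 4396 and 4193. ND6 is encoded on the other strand of the mitochondrial genome than the remaining protein genes. The mitochondrial genes share long precursor transcripts and are not independent of each other.

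In the erythroid list, HBA1, an alpha-globin of red blood cells, had the highest fold change of all tested genes in favour of the hindgut with all samples. Once hindgut replicate 1 was left out, HBAD, another alpha-type globin gene, was higher, at 2.60. The levels of HBA1 were 389.8, 219.8, 358 and 562 in hindgut replicates 1 to 4 and 116, 0, 156 and 58.6 in the Hoxd13 midgut, with no overlap, and 385 ± 233 (SD, n = 4) in the midgut. The log2 fold change of 2.07 ± 0.53 missed the threshold (edgeR adjusted p = 0.0516) and was 2.05 ± 0.61 without hindgut replicate 1 (edgeR adjusted p = 0.083). HBA1 passed with mitochondrial genes left out, without the filter on low counts, and with the replicate block, although the replicate numbers did not pair the samples. No Hoxd13 midgut sample of HBA1 reached the level of the filter on low counts. HBA1 was tested only through hindgut and midgut samples, where it was high. The same held for HBAD without hindgut replicate 1. No conclusion is drawn from the filtered fits of these globin genes. The erythroid markers together summed to 323 to 819 CPM in the hindgut and 50.03 to 157 in the Hoxd13 midgut, with HBBR and HBZ at 0. The part of blood in the sections in this difference was not tested.

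Genes with few counts could be called only when the filter on low counts was left off, and then 7 of 12365 passed (0.0566%). They were HOXD13, ENSGALG00000029193, HBA1 and HBAD, RAB6A, GJA5 and NKX3-2, and they are named because they passed under that setting. GJA5 codes for connexin 40, a channel protein of gap junctions. It had 4, 3, 8 and 4 counts in the Hoxd13 midgut and 0 in all hindgut and midgut samples. The pooled level of the Hoxd13 midgut was 6.55 times the floor of the hindgut group, and 3.25 times without hindgut replicate 1. Hindgut over Hoxd13 midgut, the 95% counting interval ran from 0 to 0.207, and from 0 to 0.418 without hindgut replicate 1. NKX3-2 codes for a homeodomain repressor of gut mesoderm and skeleton. It had 12, 6, 3 and 16 counts in the hindgut, 1, 2, 0 and 1 in the Hoxd13 midgut and 2, 2, 2 and 4 in the midgut. Pooled, NKX3-2 was 8.94 times higher in the hindgut than in the Hoxd13 midgut, with a 95% counting interval from 3.21 to 34.5, and 12.2 times higher without hindgut replicate 1 (4.21 to 48.2). The samples of hindgut and Hoxd13 midgut did not overlap in counts for either gene. For GJA5, a count of 0 allowed up to 151 CPM in hindgut replicate 3. That is above the 88.4 CPM of the pooled Hoxd13 midgut, so that sample does not set the groups apart.

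**Figure D5:**
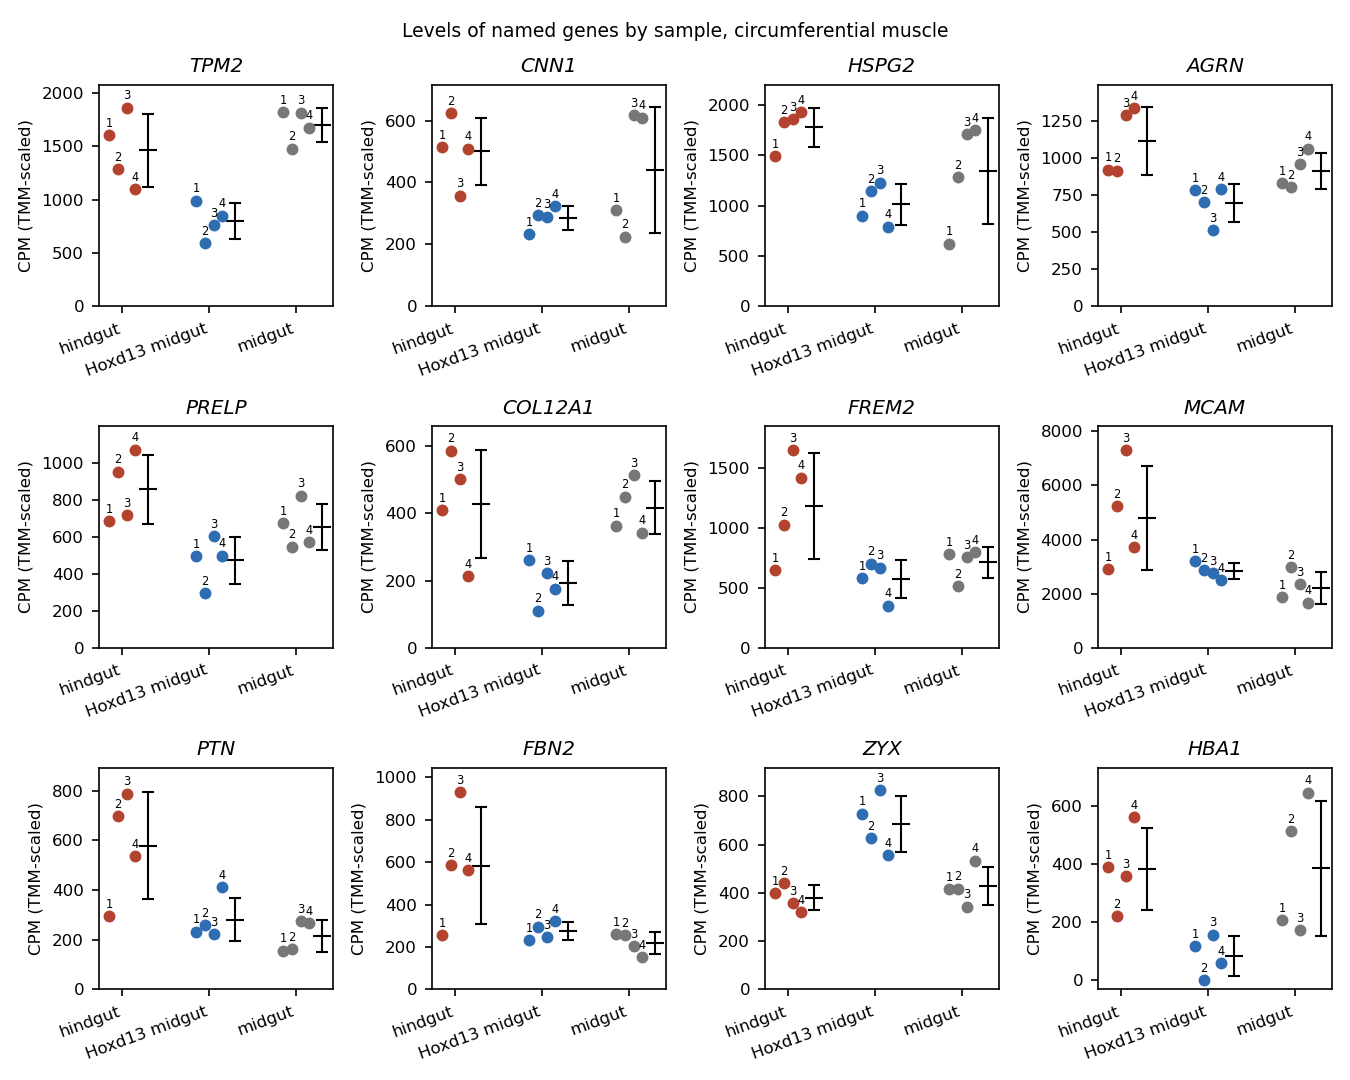
CPM (TMM-scaled total of the tested genes) of 12 named genes in each circumferential muscle column of the hindgut, Hoxd13 midgut and midgut groups. Points are samples numbered by replicate and the black bar is the mean ± SD (n = 4); in TPM2, CNN1, HSPG2, AGRN, PRELP and HBA1 all 4 hindgut samples lie above all 4 Hoxd13 midgut samples, in ZYX all lie below, and in FREM2, MCAM, PTN and FBN2 hindgut replicate 1 is the lowest hindgut sample.

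The same contrast in the subepithelial mesenchyme of the same samples was deeper, with 158 of 4176 tested genes called (3.78%), 94 higher (2.25%) and 64 lower (1.53%) in the hindgut. There too the count changed when hindgut replicate 1 was left out, to 629 of 4214 (14.9%), 329 higher (7.81%) and 300 lower (7.12%). Whether the difference between hindgut and Hoxd13 midgut was itself larger or smaller in the muscle was tested as an interaction over all 36 columns. With all samples, 0 of 614 genes passed against the mesenchyme in edgeR, 33 being under an unadjusted p of 0.05 (5.37%), and 0 passed against the longitudinal muscle, with 31 (5.05%) under that level. Without hindgut replicate 1, 3 of 549 passed against the mesenchyme (0.546%), namely FREM2, CSRP1 and RAB6A, and 0 against the longitudinal muscle.

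FREM2 was at -0.03 ± 0.13 in the mesenchyme with all samples and -0.11 ± 0.12 without hindgut replicate 1. The difference between the layers without that replicate was 1.46 ± 0.28 (edgeR adjusted p = 0.00031), higher in the hindgut muscle. CSRP1, a muscle protein that binds actin-associated partners, had levels in the circumferential muscle of 389.8, 219.8, 429 and 375 in the hindgut and 436, 554, 290.1 and 616 in the Hoxd13 midgut. Its log2 fold change there was -0.38 ± 0.32 (edgeR adjusted p = 0.64), against 1.04 ± 0.26 in the mesenchyme (edgeR adjusted p = 0.028). The difference between the layers without hindgut replicate 1 was -1.68 ± 0.40 (edgeR adjusted p = 0.0083). RAB6A, a regulator of Golgi traffic, had counts of 193, 9, 146 and 1 in the hindgut, 4, 5, 4 and 8 in the Hoxd13 midgut and 2, 186, 2 and 3 in the midgut, so that 3 samples, of hindgut and midgut, held most of its counts.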

How the data were processed

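RNA of 3 hand-outlined layers was barcoded on sections and sequenced as 1 library per sample, per the labels and the series text. Raw whole-number counts for each gene in each layer of a sample were deposited by the authors. STAR, featureCounts, UMI-tools, MultiQC and DESeq2 were named, with genome GRCg6a but no roles or settings, per the submitters' processing notes. The sources used here do not say whether reads or unique molecules were counted, nor how reads shared by similar genes were treated, so intervals and floors cover counting error only, and close paralogues (globins, actins, ribosomal proteins, W-linked genes) are uncertain.

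The table held 17138 genes, 5337 of them with an Ensembl identifier only, of which 0 were matched in the reference table (GRCg7b); 11301 symbols were matched and served for Z and W linkage. Groups came from the sample labels. In R 4.3.3, edgeR 4.0.16 (TMM, filterByExpr with a minimum count of 10 and a total of 15, quasi-likelihood test, two-sided, Benjamini-Hochberg at 0.05) was fitted to the 12 circumferential columns, and the layer by group interaction to all 36 columns, blocked by sample. The scripts were tested on simulated data. Alternatives were DESeq2 1.42.0, limma 3.58.1 with sample weights, other scalings and filters, a replicate block, and each sample left out. All replicates of a group differed beyond sampling noise (chi-square over genes) and were kept apart.

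The genes compared, the 25 gene lists and the tests were chosen with earlier results of these data known. Named are the posterior HOX genes, genes past the threshold with all samples or without hindgut replicate 1, the 4 most abundant members of the gene lists, and genes past a test between layers. TPM2, CNN1, COL6A3, COL12A1, SVEP1, ZYX, ND4L, ND6, NRP2, RPL17, RPS6, CDON and the genes called only without the filter on low counts were named after their values were seen. Exact permutation tests used samples as units, and standard errors were taken from each fold change and its F statistic.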

Additional observations from a re-analysis of the deposited data

Results flagged for a closer look

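Of 176 groups of 4 samples checked, 8 had a highest sample whose gap to the next was unusually wide for its group. Chance gives about 1 in 20, so the number flagged was no more than chance gives. In 6 of the 8 the sample was hindgut replicate 1. Its Z-linked genes summed to 18191 CPM of the total, its cytosolic ribosomal protein genes to 12668 (5844 to 6713 in hindgut replicates 2 to 4), its epithelial markers to 1808 and its mesothelial markers to 1372 (348 to 480 in the other 3). It was also the highest for GUCA2B, at 618 CPM of the TMM-scaled total, and for MYH9, at 932. In the Hoxd13 midgut, replicate 4 was highest for MYH11, at 2932, and for the summed matrix glycoproteins and proteoglycans, at 5665 CPM of the total.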

How the results depend on the processing

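With all samples 3 genes passed. The count was 3 with DESeq2's size factors in edgeR, with limma and sample weights, and with the hindgut and Hoxd13 midgut columns alone, 1 with the DESeq2 test, 7 without the filter on low counts and 6 without mitochondrial genes. Leaving out 1 sample gave 2 to 10, the highest being without hindgut replicate 1, and 5 without Hoxd13 midgut replicate 4. Without hindgut replicate 1, alternatives added after seeing the data gave 10 (hindgut and Hoxd13 midgut columns only), 13 (mitochondrial genes left out) and 5 (DESeq2). ENSGALG00000029193 passed in all 19 alternatives planned for it, HOXD13 in 18 (not in DESeq2, adjusted p = 0.059) and ENSGALG00000041922 in 13.

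The replicate numbers were tried as a block, although they did not pair the samples: deviations of same-numbered samples correlated at 0.011 to 0.18 over 4 pairs. The replicate block gave 8 calls, and a HOXD13 difference of -609 with an exact permutation p of 0.125, the smallest that 4 pairs allow. Leaving out 1 sample gave a HOXD13 difference of -683 to -561 CPM, each with the smallest exact permutation p of 3 against 4, 0.0571. Calls between muscle and mesenchyme were 0 to 3 when 1 sample was left out, 3 without hindgut replicate 1.

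Of 56 fold changes, 49 kept their sign under every alternative in which they were fitted. The cause of the reversals was not tested. TAGLN was at 0.0043 with DESeq2, 0.080 with limma, 0.0053 with the replicate block, and -0.21 to 0.10 with 1 sample left out. MYH11 was at 0.017 with limma and -0.16 to 0.21 with 1 sample left out, and MYLK at -0.20 to 0.058. Leaving out 1 sample gave -0.72 to 0.82 for RPL17, -0.079 to 1.07 for RPS6, -0.33 to 0.71 for CDON and -0.65 to 0.60 for PODXL, each lowest without hindgut replicate 1. Without that replicate, TAGLN was at 0.099 in the hindgut and Hoxd13 midgut columns alone. With mitochondrial genes also left out, TAGLN was at 0.11, RPL17 at -0.70, RPS6 at -0.057, CDON at -0.30 and PODXL at -0.62. With DESeq2 they were at 0.14, -0.70, -0.028, -0.33 and -0.65. Over the 23 fits, all basement membrane genes fitted, 7 or 8, were above 0, as were 8 to 10 of the 9 or 10 collagen genes fitted. In each of the 21 fits that held mitochondrial genes, 1 of 13 was above 0. The median of all tested genes stayed within -0.05 to 0.02. Depth limited the test to 349 genes, and signalling and HOX genes mostly fell below that filter.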

Other observations

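Cytosolic ribosomal protein genes, which make up the machinery of translation, summed to 12668, 5844, 5873 and 6713 CPM of the total in hindgut replicates 1 to 4, 6269 to 7704 in the Hoxd13 midgut and 9366 to 12219.8 in the midgut. Of 12 tested cytosolic ribosomal protein genes, 8 had a log2 fold change above 0 with all samples (median 0.05) and 1 without hindgut replicate 1 (median -0.21), and none passed in edgeR. RPL17 had levels of 694, 73.3, 215 and 187 in hindgut replicates 1 to 4, 254 ± 51.6 in the Hoxd13 midgut and 794 ± 64.6 in the midgut (SD, n = 4 each). RPS6 had 561, 147, 286 and 187, against 202 ± 85.9 and 603 ± 199.6. CDON, a co-receptor for Hedgehog ligands, had 389.8, 109.9, 71.6 and 187, against 173 ± 73.3 and 435 ± 73.2, and PODXL, a surface sialomucin, had 542, 147, 71.6 and 187, against 234 ± 41.9 and 543 ± 324. In these genes hindgut replicate 1 was the highest hindgut sample, and the fold change with all samples had the opposite sign to that without it.

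NRP2, a co-receptor for semaphorins and VEGF, had levels of 618, 586, 716 and 669 in the hindgut and 407, 258, 446 and 352 in the Hoxd13 midgut, without overlap, and a log2 fold change of 0.77 ± 0.26 (edgeR adjusted p = 0.13). LTBP1, which stores latent TGF-beta in the matrix, had 589, 879, 573 and 749.6 against 553, 665, 446 and 498, at 0.38 ± 0.23 (edgeR adjusted p = 0.48). Of epithelial genes, the adhesion gene CDH1 was at -0.25 ± 0.36 with all samples and -0.75 ± 0.43 without hindgut replicate 1, and the brush border peptidase gene ANPEP at -0.33 ± 0.40 and -1.12 ± 0.46, and neither passed in edgeR. The keratin gene KRT7 was at -0.54 ± 0.37 and -1.20 ± 0.42, and did not pass either.

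Signalling genes were mostly under the filter on low counts. Summed CPM of the total were 1169 to 1639 in the hindgut and 876 to 1076 in the Hoxd13 midgut for 19 BMP genes, and none of the 19 passed that filter. These ranges did not overlap on this scaling or as a share of counts outside mitochondrially encoded genes. The nearest samples, hindgut replicate 2 and Hoxd13 midgut replicate 4, held only 47 and 53 BMP counts. On the second scaling they lay at 2006 and 1987, so the gap is not resolved. The midgut BMP sums, 1008 to 1424, overlapped both groups. In the hindgut and Hoxd13 midgut, the sums of 12 Hedgehog response genes were 1094 to 1710.4 and 927 to 1259. For 16 WNT genes they were 1104 to 1283 and 813 to 1024, and for 11 TGF-beta genes 1205 to 1969 and 1113 to 1421. Markers of enteric neurons and glia summed to 301 to 1176 and 557 to 850.5, and those of interstitial cells of Cajal, the pacemaker cells of the gut, to 124 to 479.5 and 53.9 to 345. Growth factors and receptors summed to 1658 to 2108 and 1149.7 to 1787, the mechanical response list to 671 to 1016 and 550.3 to 772, proliferation genes to 895 to 1488 and 942 to 1551, and mesothelial markers to 348 to 1372 and 487 to 926. The WNT sums were apart as CPM of the total only. Scaled to counts outside mitochondrially encoded genes they overlapped, at 1708 to 2134 in the hindgut and 1466 to 1947 in the Hoxd13 midgut. The basement membrane, erythroid and posterior HOX sums stayed apart on both scalings, as did the BMP sums by a gap that is not resolved.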
